A study of Mus musculus with 15 samples.

Results

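The striated and cardiac muscle miRNAs measured here were mmu-miR-1a-3p, mmu-miR-1a-1-5p, mmu-miR-1b-5p, mmu-miR-133a-3p, mmu-miR-133b-3p and mmu-miR-208b-3p (the species prefix is left off below), taken by name from a table of mouse lung small RNA. They are 6 of the 1424 mature miRNAs in the table. The lungs came from C57BL/6 mice, labelled 11 weeks old, that either were homozygous for the R213G form of extracellular superoxide dismutase (EC-SOD), a matrix-bound antioxidant enzyme, or carried the WT form. Each mouse had received 100 uL of bleomycin at 1 U/mL into the trachea, which injures the lung, or PBS, the vehicle, and lungs were collected 7 days later. The libraries fell into R213G bleomycin (n = 4), R213G PBS (n = 4), WT bleomycin (n = 4) and WT PBS (n = 3). All lungs were flushed with 10 mL of PBS through the right ventricle and frozen and pulverised whole. Both sexes were used, but which library came from which sex was not stated. No label states that each library is a separate animal, so the p-values below measure only the spread between these samples. In whole lung, fewer cells of a type and less RNA per cell cannot be told apart.

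Striated muscle fibres make a small set of miRNAs that other cells largely lack. Genes for miR-1 and miR-133 are transcribed together, in heart and in skeletal muscle, under muscle transcription factors, and their products act on muscle growth and excitability. The miR-208 family is encoded in introns of myosin heavy chain genes. miR-208a belongs to the heart, and miR-208b, with its host gene Myh7, to the heart and to slow skeletal fibres. miR-206 and miR-133b are transcribed together and are typical of skeletal muscle. In the mouse, cardiac muscle extends into the walls of the pulmonary veins within the lung.

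A mature sequence was found for 3 of the 6 miRNAs in the RefSeq table of build GRCm38.p6. They are shown, with relatives that separate heart from skeletal muscle, because their seeds and their small differences decide which rows can be read apart. Capitals mark the seed, bases 2 to 8 from the 5′ end.
miR-1a-1-5p: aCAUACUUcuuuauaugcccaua
miR-133b-3p: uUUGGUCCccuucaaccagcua
miR-208b-3p: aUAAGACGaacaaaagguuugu
miR-208a-3p: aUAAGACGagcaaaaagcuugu
miR-499-5p: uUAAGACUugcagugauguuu
miR-206-3p: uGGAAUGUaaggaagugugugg
miR-208b-3p and miR-208a-3p shared the same seed and 19 of 22 bases. Counted from the 5′ end, with the miR-208a-3p base first, they differed by G10A, A16G and C18U, all outside the seed. The seed of miR-499-5p, from the intron of a further myosin gene, matched 6 of the 7 seed bases of miR-208b-3p and differed by G8U.

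On GRCm38, Mir1a-1 lies at chr2:180389048-180389124 on the plus strand, with Mir133a-2 downstream at chr2:180398379-180398482 on the same strand, 9254 bases further on. Mir133b, at chr1:20682769-20682887, follows Mir206, at chr1:20679010-20679082, by 3686 bases, both on the plus strand. Mir208b lies on the minus strand at chr14:54975700-54975776, in an intron of Myh7, and Mir208a at chr14:54949060-54949142, in an intron of Myh6, on the same strand. Mir499 lies at chr2:155622880-155622958 on the plus strand, in an intron of Myh7b. miR-1a-3p and miR-133a-3p each come from a second gene copy as well, so their rows sum over both. Mir1a-2 lies within Mir1b on the opposite strand, and no source used here says whether the counting used strand, so miR-1b-5p and the miR-1a-2 hairpin cannot be told apart with certainty. miR-133a-3p and miR-133b-3p share their seed and are near-identical, which makes the split of reads between their rows uncertain too.

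Values below are log2 of 1 plus an equalized count, a scale inferred from the table, with no correction for length or ligation. All 6 miRNAs passed the filter, more than 5 equalized counts in 3 or more libraries, as did 818 miRNAs in all. miR-133a-3p was the highest of the 6 in all 15 libraries, 9.50-fold to 26.1-fold above miR-1a-3p. In 10 libraries the order was miR-133a-3p, miR-208b-3p, miR-1a-3p, miR-133b-3p, miR-1b-5p and miR-1a-1-5p. In 4 others miR-1a-3p stood above miR-208b-3p, and in WT PBS replicate 3 miR-133b-3p did so as well. In R213G bleomycin libraries miR-208b-3p stood above miR-1a-3p in 4 of 4, by 1.00 ± 0.71 (log2, SD). In the other groups the difference, miR-208b-3p minus miR-1a-3p, was smaller than its SD, at -0.17 ± 0.62 in R213G PBS, -0.05 ± 0.40 in WT bleomycin and -0.47 ± 1.56 in WT PBS libraries. miR-126a-3p, an endothelial miRNA and so no mark of lung alone, was between 18.56 and 19.50 in the libraries other than WT PBS replicate 3. It was at 18.99 in that library.

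Together the 6 miRNAs made up a very small share of each library, and the mean share was lower in bleomycin than in PBS lungs of each genotype, a description with no test. The share was 0.0233%, 0.0303%, 0.0406% and 0.0501% of the library sum in R213G bleomycin replicates 1 to 4, against 0.136%, 0.1002%, 0.132% and 0.114% in R213G PBS replicates 1 to 4. It was 0.0538%, 0.0448%, 0.0719% and 0.0521% in WT bleomycin replicates 1 to 4, against 0.0902%, 0.0678% and 0.400% in WT PBS replicates 1 to 3. The R213G groups did not overlap. The WT groups did, since WT bleomycin replicate 3 lay above WT PBS replicate 2, and WT PBS replicate 3 lay far above every other library. The mean share in bleomycin libraries was 0.299 of that in PBS libraries for R213G and likewise 0.299 for WT, but without WT PBS replicate 3, a library set aside after its values were seen, the WT figure was 0.705. miR-133a-3p supplied 75.7% to 93.8% of the 6-miRNA sum, so this share is mainly a reading of miR-133a-3p. miR-208b-3p supplied 0.764% of it in WT PBS replicate 3 and 17.4% in R213G bleomycin replicate 1.

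**Figure D1:**
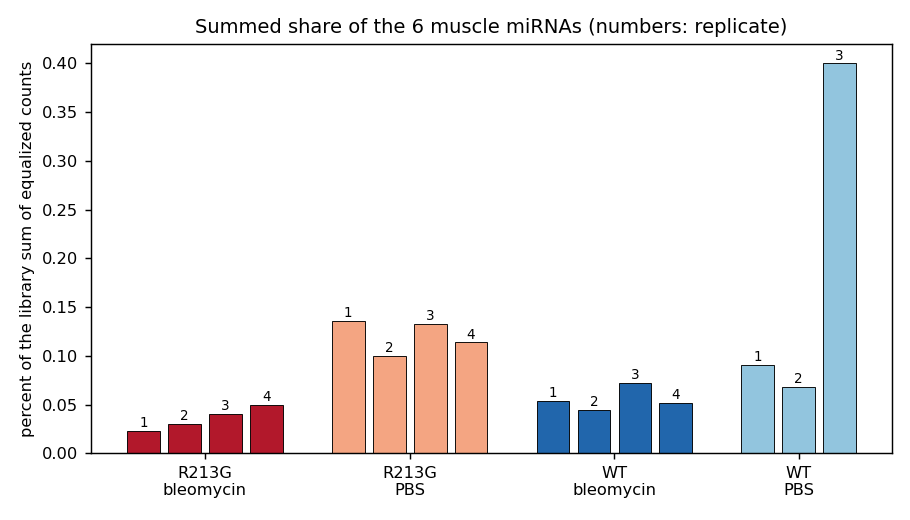
Summed equalized counts of the 6 muscle miRNAs as a percent of the library sum, 1 bar per library, with the replicate number above each bar and the groups along the x axis. WT PBS replicate 3 reaches 0.400%, and the R213G bleomycin bars, 0.0233% to 0.0501%, all lie below the R213G PBS bars, 0.1002% to 0.136%.

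After bleomycin, 4 of the 6 miRNAs fell in R213G lungs and 2 of the 6 fell in WT lungs, and none rose in either (limma over all 15 libraries, adjusted p under 0.05 over the 818 tested). Among all tested miRNAs, 19.8% fell and 22.2% rose in R213G, and 10.3% fell and 16.4% rose in WT. The median log2 difference of the 6 was -1.04 in R213G and -0.96 in WT, beside 0.05 for all tested miRNAs in each genotype. Groups stood fully apart, bleomycin below PBS, for 2 of the 6 in R213G and for 2 of the 6 in WT, against 17.4% of tested miRNAs in R213G and 13.6% in WT. Taken over the mean of both genotypes, 4 of the 6 fell, against 22% of tested miRNAs, with a median of -1.08 beside 0.08. miR-1b-5p is among the 4 in R213G and over both genotypes, and its row may not be separate from that of miR-1a-3p.

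miR-1a-3p, the main arm of miR-1, which restrains growth of muscle cells, read 7.73, 8.20, 9.46 and 8.72 in R213G bleomycin replicates 1 to 4, against 10.68, 9.72, 10.40 and 9.79 in R213G PBS replicates 1 to 4. It read 8.73, 8.70, 9.72 and 9.26 in WT bleomycin replicates 1 to 4, against 9.49, 9.19 and 11.57 in WT PBS replicates 1 to 3. All R213G bleomycin libraries lay below all R213G PBS libraries, while the WT groups overlapped. The means were 8.53 ± 0.74 in R213G bleomycin and 10.15 ± 0.47 in R213G PBS libraries (SD, n = 4 each), and the fall of 3.07-fold passed the test (log2 difference -1.62, SE 0.45, limma adjusted p 0.00877). In WT the difference was -0.98 (SE 0.48, limma adjusted p 0.147), and it was -0.24 (adjusted p 0.691) without WT PBS replicate 3.

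miR-1b-5p, from the gene antisense to Mir1a-2, ran parallel to miR-1a-3p at a lower level. It read 4.31, 4.40, 5.94 and 4.57 in R213G bleomycin replicates 1 to 4, against 7.09, 5.83, 6.81 and 6.40 in R213G PBS replicates 1 to 4, with R213G bleomycin replicate 3 inside the PBS range. It read 4.98, 5.34, 6.32 and 5.74 in WT bleomycin replicates 1 to 4, against 5.76, 5.65 and 8.16 in WT PBS replicates 1 to 3, and these groups overlapped. It fell 3.31-fold in R213G (log2 difference -1.73, SE 0.50, limma adjusted p 0.0111). The WT difference was -0.93 (SE 0.54, limma adjusted p 0.210), and -0.11 (adjusted p 0.873) without WT PBS replicate 3. The log2 ratio of miR-1b-5p to miR-1a-3p lay between -4.15 and -3.36 in all 15 libraries and differed between bleomycin and PBS by -0.03 (exact permutation test within genotype, two-sided, p = 0.802). Whether counting used strand is not stated, so the miR-1b-5p row may hold reads of the miR-1a-2 hairpin. The parallel therefore cannot be taken as a separate reading.

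miR-1a-1-5p, the passenger arm of Mir1a-1, was close to the lower limit of the table. It read 1.81, 1.84, 1.88 and 2.50 in R213G bleomycin, against 2.94, 1.44, 3.05 and 1.92 in R213G PBS libraries, by replicate number. In WT it read 2.01, 2.03, 3.13 and 0.78 in bleomycin libraries, against 1.51, 2.04 and 4.52 in PBS libraries. Both pairs of groups overlapped. The differences were -0.33 (SE 0.61, 95% interval -1.63 to 0.97) in R213G and -0.71 (SE 0.66, 95% interval -2.11 to 0.70) in WT, and neither passed the test, with limma adjusted p 0.690 and 0.471 in that order of genotypes.

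miR-133a-3p, the most abundant of the 6 and a brake on the smooth muscle genes of developing heart, showed the lowest p of the 6 in both genotypes. It read 11.72, 12.18, 12.71 and 12.94 in R213G bleomycin replicates 1 to 4, against 14.81, 14.31, 14.67 and 14.48 in R213G PBS replicates 1 to 4. It read 13.28, 12.85, 13.72 and 13.16 in WT bleomycin replicates 1 to 4, against 14.19, 13.88 and 16.24 in WT PBS replicates 1 to 3. The bleomycin libraries lay wholly below the PBS libraries in each genotype. It fell 4.54-fold in R213G (12.38 ± 0.55 in bleomycin and 14.57 ± 0.22 in PBS libraries, SD, n = 4 each; limma adjusted p 0.000429). It fell 2.87-fold in WT (13.25 ± 0.36, n = 4, in bleomycin and 14.77 ± 1.28, n = 3, in PBS libraries, SD; limma adjusted p 0.0121). The log2 difference in WT was -1.52 with all libraries and -0.79 without WT PBS replicate 3, with an adjusted p of 0.0405 there.

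miR-133b-3p, the miR-133 of the skeletal muscle locus, moved less evenly. It read 6.28, 6.51, 7.86 and 7.36 in R213G bleomycin replicates 1 to 4, against 7.45, 7.14, 7.85 and 7.38 in R213G PBS replicates 1 to 4. It read 6.52, 7.13, 7.64 and 7.13 in WT bleomycin replicates 1 to 4, against 7.75, 7.15 and 10.17 in WT PBS replicates 1 to 3. Groups overlapped in both genotypes, and R213G bleomycin replicates 3 and 4 lay in or at the edge of the R213G PBS range. The difference was -0.45 (SE 0.49, 95% interval -1.49 to 0.59, limma adjusted p 0.478) in R213G and -1.25 (SE 0.53, 95% interval -2.38 to -0.13, limma adjusted p 0.0938) in WT. The WT value was -0.35 (adjusted p 0.528) without WT PBS replicate 3 and -1.85 (adjusted p 0.0210) without WT PBS replicate 2. With library medians made equal it was -1.37 (adjusted p 0.0391), a call gained that way and under quantile normalization. In the libraries other than WT PBS replicate 3, miR-133b-3p read 6.28 to 7.86, while miR-206-3p of the same locus read 0 to 3.65. Which muscle the miR-133b-3p row reads was not tested.

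miR-208b-3p, the Myh7 intron miRNA of heart and slow fibres, changed by little but with little spread. It read 9.60, 9.47, 9.79 and 9.25 in R213G bleomycin replicates 1 to 4, against 9.76, 10.16, 9.97 and 10.02 in R213G PBS replicates 1 to 4. It read 8.76, 9.17, 9.23 and 9.07 in WT bleomycin replicates 1 to 4, against 9.76, 9.78 and 9.31 in WT PBS replicates 1 to 3. The WT groups did not overlap, and in R213G bleomycin replicate 3 lay just above PBS replicate 1. It fell 1.37-fold in R213G (log2 difference -0.45, SE 0.15, limma adjusted p 0.0218) and 1.47-fold in WT (log2 difference -0.56, SE 0.16, limma adjusted p 0.0160). The R213G call was lost without R213G bleomycin replicate 4 (adjusted p 0.0802), R213G PBS replicate 2 (0.0701) or R213G PBS replicate 4 (0.0509). In WT, leaving out PBS replicate 1 (adjusted p 0.0752) or PBS replicate 2 (0.0801) ended the call, and without WT PBS replicate 3 the difference was -0.71 (adjusted p 0.00407).

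**Figure D2:**
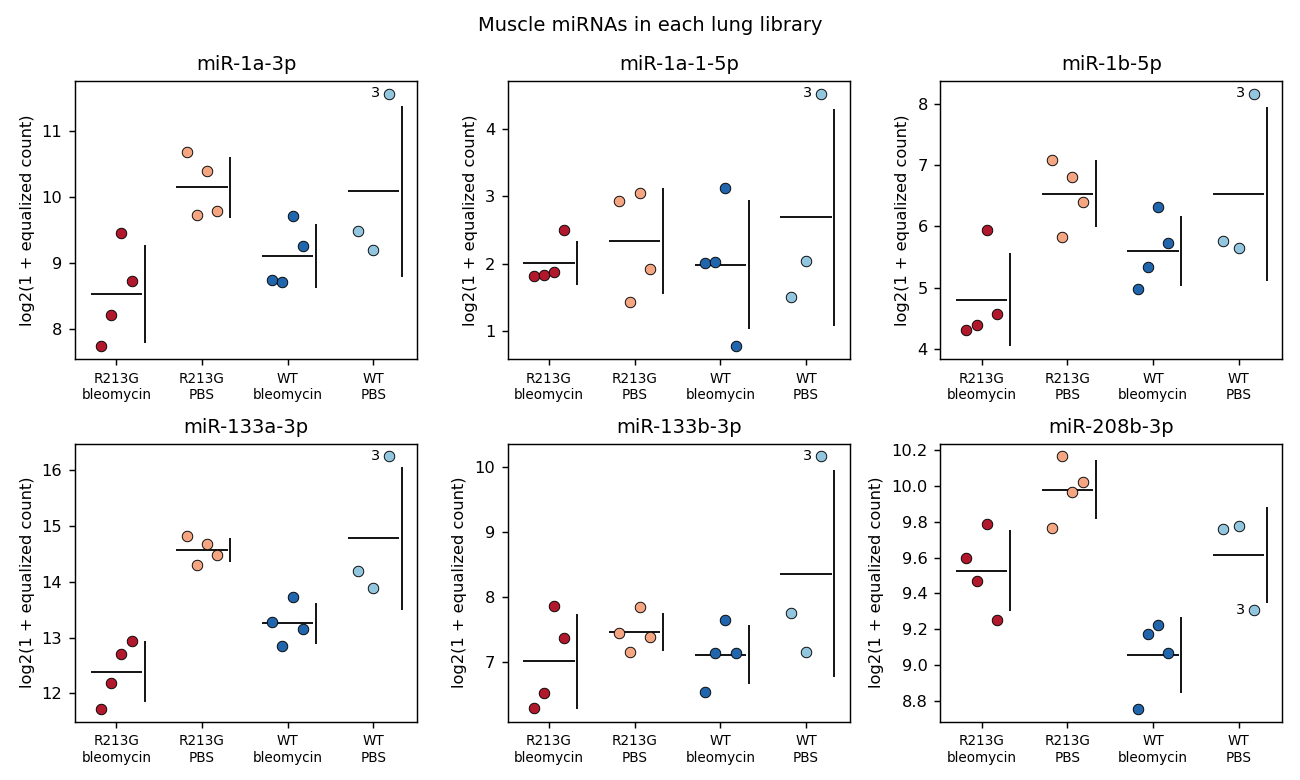
Log2 of 1 plus the equalized count of each of the 6 miRNAs, 1 panel each, with a point per library, a horizontal line at the group mean and a vertical bar of 1 SD either side, and the point of WT PBS replicate 3 marked 3. That point tops its group in 5 panels, up to 16.24 for miR-133a-3p, and is the lowest of its group, 9.31, for miR-208b-3p.

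**Figure D3:**
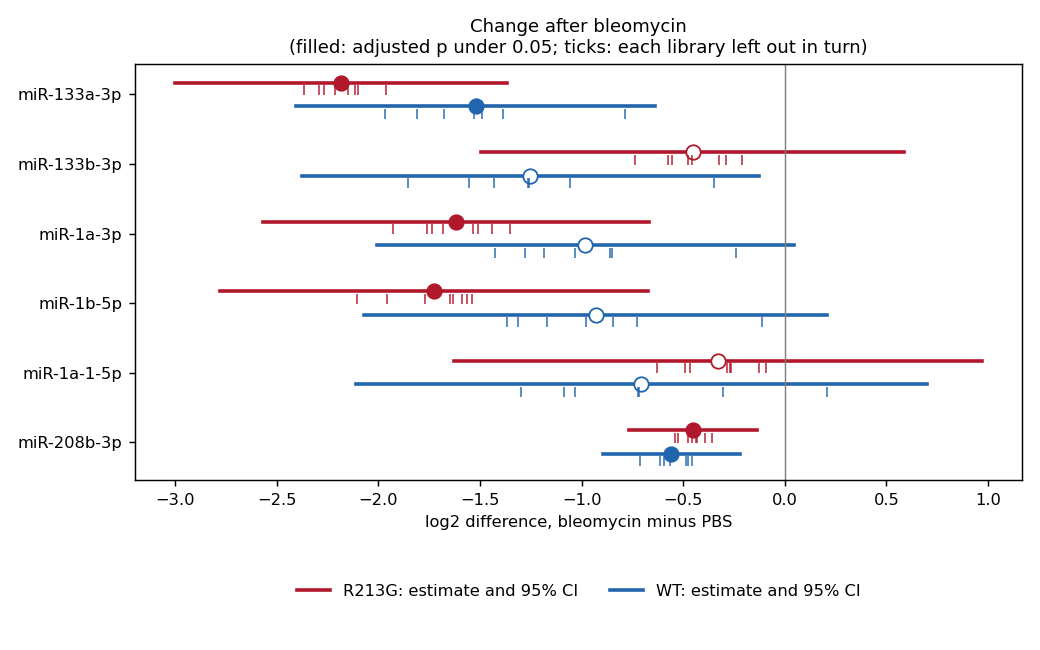
Log2 difference, bleomycin minus PBS, for each miRNA in R213G and WT, with 95% intervals as lines, filled points where the limma adjusted p was under 0.05, and ticks for the value with each library left out in turn. The WT ticks of miR-133a-3p run from -1.97 to -0.79, and those of its R213G change from -2.37 to -1.96.

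The column names carry tag numbers, and those of the R213G libraries form an unbroken series. For this examination the series was cut into a lower and a higher run of consecutive tags, each with 2 bleomycin and 2 PBS libraries. The labels do not give this cut, so the runs are a split of the libraries and not known batches. Each fit kept all WT libraries, which enter its estimate of spread, so its p-values do not measure the spread within a run alone. In these fits the fall of miR-133a-3p passed for each run. It was -2.53 (limma adjusted p 0.0127) in the lower run and -1.84 (adjusted p 0.0363) in the higher run. The other falls kept their sign but most did not pass within a run of this size. miR-1a-3p was at -1.94 (adjusted p 0.0646) and -1.29 (adjusted p 0.131) in the lower and the higher run, in that order. miR-1b-5p was at -1.83 (adjusted p 0.102) and -1.63 (adjusted p 0.0967), in the same order. miR-208b-3p was at -0.17 (adjusted p 0.569) in the lower run and at -0.73 (adjusted p 0.0224) in the higher run. All WT tags are higher than all R213G tags, so genotype cannot be separated from tag order. Within WT, all bleomycin tags are lower than all PBS tags, so the WT changes cannot be separated from tag order either. In each R213G run, too, the bleomycin tags are lower than the PBS tags. No source used here says what the tags record, and their part in the results was not tested.

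WT PBS replicate 3 stood apart at the high end. It held the highest value of all 15 libraries for 5 of the 6 miRNAs, while it was highest for 10.1% of tested miRNAs. Relative to the mean of the other 2 WT PBS libraries it was higher by 2.20 for miR-133a-3p, 2.23 for miR-1a-3p, 2.46 for miR-1b-5p, 2.72 for miR-133b-3p and 2.75 for miR-1a-1-5p on the log2 scale, beside a median of 0.13 over tested miRNAs. Only 2.2% of tested miRNAs were higher by at least 2. miR-208b-3p was lower there by 0.46 (log2 difference -0.46). Beyond the 6, miR-206-3p, the skeletal muscle miRNA, was at 7.03 in this library and between 0 and 3.65 in the other 14, and it passed the count minimum in too few libraries to be tested. The heart's miR-208a-3p was at 9.02 there, against 6.01 to 8.05 in the other 14. Relative to the mean of the other 2 WT PBS libraries, 1.08 and so near the lower limit, the skeletal miR-206-3p was higher there by 5.95 (log2). Cardiac markers were uneven. miR-208a-3p was higher by 1.82, miR-208a-5p by 2.14 and miR-499-5p by 0.92, the last only 0.16 above the highest other library. miR-499-3p and miR-208b-5p read 0 there, but neither read above 1.21 in any of the 15 libraries. At that level their values in this library carry no information on cardiac content. At the low end, R213G bleomycin replicate 1 held the lowest value of all 15 libraries for 4 of the 6, namely miR-1a-3p, miR-1b-5p, miR-133a-3p and miR-133b-3p, while it was lowest for 9.05% of tested miRNAs. Without it the R213G difference was -1.96 for miR-133a-3p (limma adjusted p 0.00202), -1.35 for miR-1a-3p (0.0337), -1.56 for miR-1b-5p (0.0344) and -0.48 for miR-208b-3p (0.0337).

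Libraries of a group also differed among themselves in a shared way. After each library's deviation from its group mean was taken, the 10 pairs among the 5 members other than miR-208b-3p correlated at r = 0.71 to 0.96 over 15 libraries, and at 0.35 to 0.92 over 14 without WT PBS replicate 3. miR-208b-3p correlated with those 5 at -0.56 to -0.20 over 15 libraries and at -0.26 to 0.32 over 14. These are descriptions across values that share library, scaling and group means. miR-1a-3p deviated with the cardiac miR-208a-3p at r = 0.87 (0.81 over the 14) and miR-133b-3p with miR-208a-3p at 0.93 (0.95). miR-208b-3p and miR-208a-3p, which share a seed, deviated together at -0.07 (0.34). Which cells the miR-208b-3p row reads in these lungs was not tested. miR-499-5p, at 2.41 to 4.38 in the 15 libraries, followed miR-1a-3p at 0.31 (0.02).

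**Figure D4:**
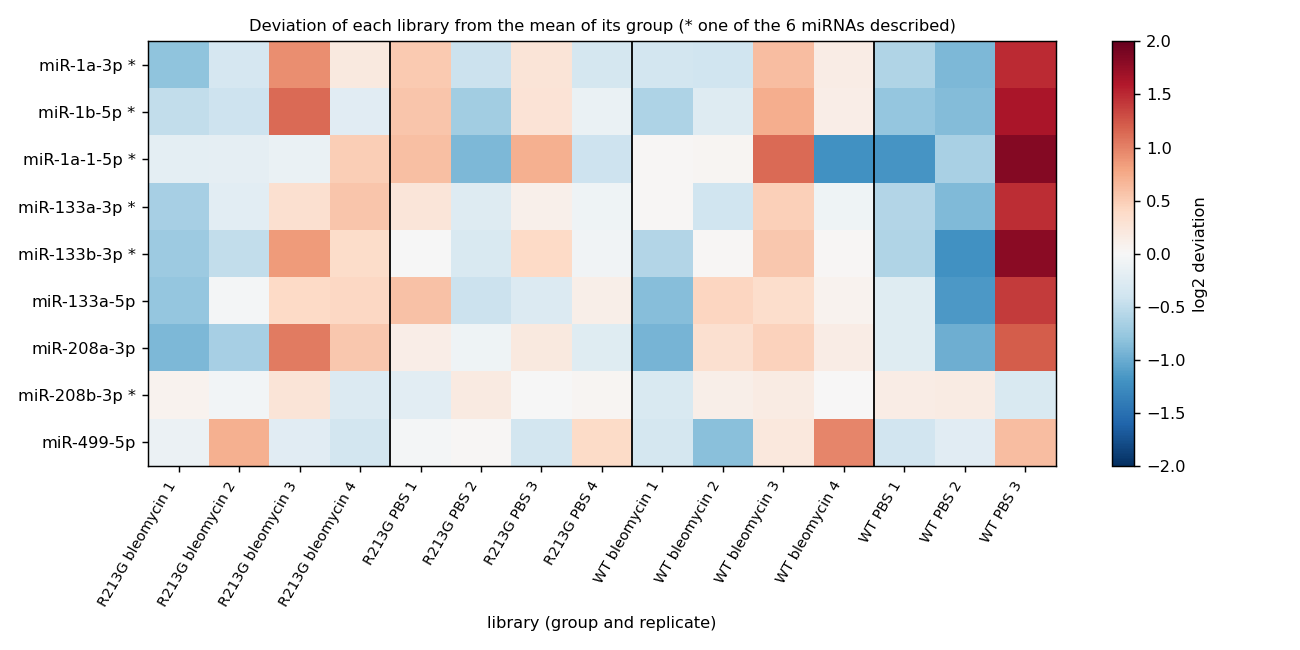
Deviation of each library (columns, by group and replicate) from the mean of its group, in log2 units, for the 6 miRNAs (starred) and 3 relatives (rows), with red above and blue below the group mean. The WT PBS replicate 3 column is red in the miR-1, miR-133 and miR-208a rows and blue for miR-208b-3p. R213G bleomycin replicate 3 is red most strongly in the rows of miR-1a-3p, miR-1b-5p, miR-133b-3p and miR-208a-3p. It is a paler red for miR-133a-3p, miR-133a-5p and miR-208b-3p.

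**Figure D5:**
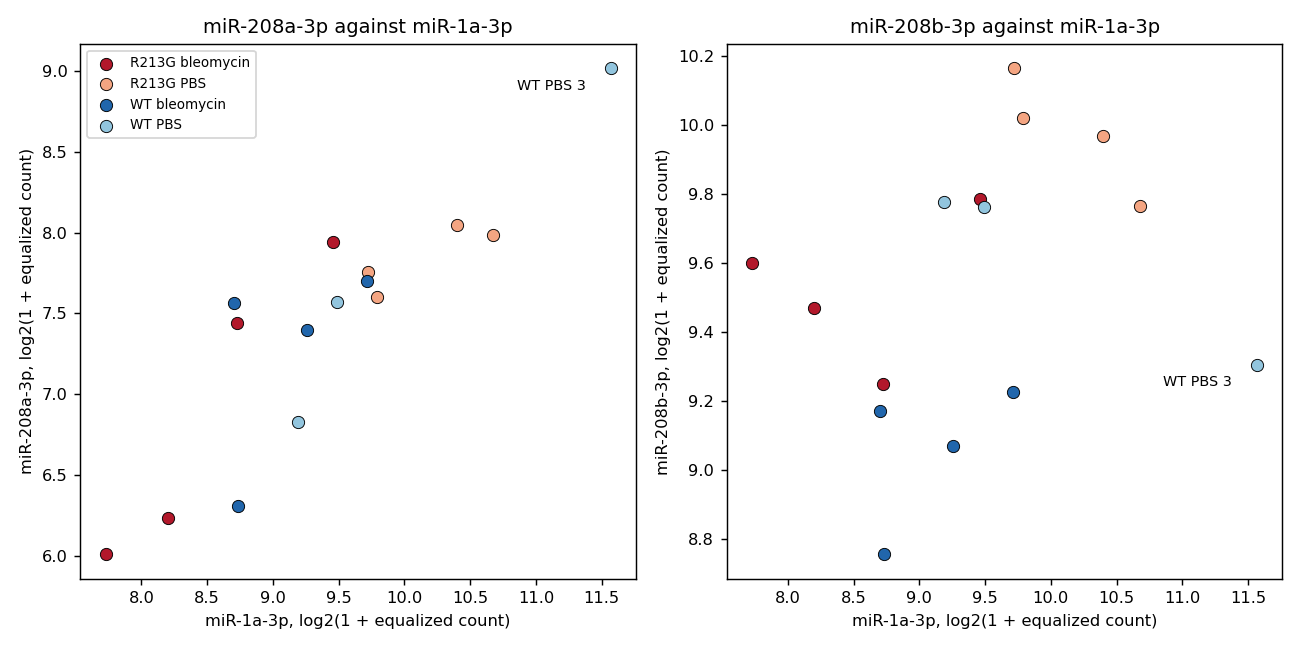
Levels of miR-208a-3p (left) and miR-208b-3p (right) against miR-1a-3p, as log2 of 1 plus the equalized count, with a point per library coloured by group. miR-208a-3p climbs with miR-1a-3p up to 9.02 in WT PBS replicate 3, while miR-208b-3p stays between 8.76 and 10.16.

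Ratios between members within a library do not move with a content that all members share, so 5 of them were tested by exact permutation of bleomycin and PBS within genotype, two-sided. The smallest p that the test over both genotypes can give is 0.000408, and 0.0286 is the smallest within a genotype. The ratio of miR-133a-3p to miR-1a-3p was lower after bleomycin by 0.55 on the log2 scale (difference -0.55, p = 0.00286, adjusted over the 5 ratios 0.0143, exact permutation). The difference was -0.56 in R213G (exact permutation p = 0.0571, adjusted 0.0714) and -0.54 in WT (exact permutation p = 0.0571, adjusted 0.286). Neither genotype passed alone. The R213G groups overlapped, and the WT groups did not. The ratio was 3.86 ± 0.42 in R213G bleomycin and 4.42 ± 0.26 in R213G PBS libraries (SD, n = 4 each), and 4.15 ± 0.28 (n = 4) in WT bleomycin and 4.69 ± 0.01 (n = 3) in WT PBS libraries. WT PBS replicate 3, with its ratio of 4.67, lay beside 4.70 and 4.69 in the other 2, so this ratio did not set that library apart.

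The ratio of miR-133b-3p to miR-133a-3p was higher after bleomycin by 1.00 over both genotypes (exact permutation p = 0.00612, adjusted 0.0153). It was -5.38 ± 0.37 in R213G bleomycin and -7.11 ± 0.22 in R213G PBS libraries (SD, n = 4 each), and -6.15 ± 0.44 (n = 4) in WT bleomycin and -6.42 ± 0.33 (n = 3) in WT PBS libraries. The R213G groups did not overlap, and the WT groups did. The difference was 1.73 in R213G (exact permutation p = 0.0286, adjusted 0.0714) and 0.27 in WT (exact permutation p = 0.429), and the difference between genotypes was not tested. The split of reads between these near-identical miRNAs limits this ratio. The remaining ratios did not pass, with miR-208b-3p to miR-1a-3p at 0.79 (exact permutation, adjusted p 0.126), miR-1a-1-5p to miR-1a-3p at 0.78 (adjusted p 0.0891) and miR-1b-5p to miR-1a-3p at -0.03 (adjusted p 0.802). That of miR-208b-3p to miR-1a-3p was 0.42 in WT and -0.47 there without WT PBS replicate 3.

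Between genotypes, no tested miRNA passed in any of the 3 contrasts (0 of 818 each by limma), so no member did. Genotype cannot be separated from tag order in these contrasts. At an unadjusted limma p under 0.05 there were 97 of 818 after bleomycin, 44 after PBS and 65 for the interaction, with 2, 1 and 0 members among them in that order. After bleomycin, miR-208b-3p was at 9.25 to 9.79 in R213G and 8.76 to 9.23 in WT libraries, groups that did not overlap, which held in that direction for 3.06% of tested miRNAs. Its difference, R213G minus WT, was 0.47 (SE 0.15, 95% interval 0.16 to 0.78, unadjusted limma p 0.00592, adjusted p 0.303). miR-133a-3p differed by -0.87 after bleomycin (95% interval -1.68 to -0.05, unadjusted limma p 0.0388, adjusted p 0.387). After PBS, miR-208b-3p differed by 0.36 (95% interval 0.03 to 0.70, unadjusted limma p 0.0369, adjusted p 0.827), and the other 5 had unadjusted p above 0.1. The genotype by bleomycin interaction was -0.66 for miR-133a-3p (95% interval -1.86 to 0.54, limma adjusted p 0.806), -0.64 for miR-1a-3p (95% interval -2.03 to 0.76) and 0.11 for miR-208b-3p (95% interval -0.36 to 0.57). Without WT PBS replicate 3 it was -1.40 for miR-133a-3p (adjusted p 0.329) and -1.38 for miR-1a-3p (adjusted p 0.394).

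Of 12 further striated muscle miRNAs listed, 9 were in the table and 5 were tested. In R213G 1 of these 5 fell, miR-133a-5p, the passenger arm of miR-133a, by 1.32 on the log2 scale (difference -1.32, limma adjusted p 0.0243), and in WT 0 of 5 fell by limma, with 1 of the 5 at an unadjusted p under 0.05, miR-133a-5p (difference -1.20, adjusted p 0.0748), beside 313 of the 818 tested. miR-208a-3p differed by -0.94 (adjusted p 0.107) in R213G and -0.56 (adjusted p 0.433) in WT. miR-499-5p differed by -0.03 in R213G and -0.53 in WT. Over both genotypes 2 of 5 fell, miR-133a-5p and miR-208a-5p, at -1.26 (adjusted p 0.00430) and -1.13 (adjusted p 0.0443). The list's median was -0.94 in R213G and -0.56 in WT, and the share of all tested miRNAs that fell stands above.

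Some markers of other tissues moved with bleomycin too, and their part in the results above was not tested. The counts below stand beside 19.8% of all tested miRNAs that fell in R213G and 10.3% in WT. No list was tested against these shares. Of 4 smooth muscle miRNAs of the miR-143 and miR-145 family, 3 fell in R213G and 2 in WT, with medians of -0.30 and -0.35. The 4 miR-486 arms, which muscle and red cells share and whose a and b copies are near-identical and so uncertain, all fell, with differences of -1.70 to -1.44 in R213G and -2.45 to -2.20 in WT. Of the 3 red cell miRNAs, miR-451a and the 2 arms of miR-144, 1 fell in R213G and 2 in WT. Of 5 miRNAs listed for lung vessels and airway, 2 fell in each genotype, with medians of -0.29 in R213G and -0.27 in WT. That list holds miR-143-3p and miR-145a-5p of the smooth muscle list too, and 1 of its 2 falls in each genotype was among them, miR-143-3p in R213G and miR-145a-5p in WT. The others were miR-126a-3p in R213G and miR-200c-3p, an epithelial miRNA, in WT. Of 5 miRNAs listed for other organs, miR-181a-5p and miR-205-5p fell in both genotypes and miR-375-3p fell in R213G. Among these, miR-181a-5p was at 18.64 to 19.95 and miR-375-3p at 14.20 to 15.19 in all 15 libraries, levels well above those of most of the muscle miRNAs, and miR-205-5p is typical of squamous and basal epithelium. The liver's miR-122-5p differed by -1.24 in R213G and 0.46 in WT, and the brain's miR-124-3p by 1.68 and 1.08, with no call in either genotype. Over both genotypes miR-124-3p rose (difference 1.38, limma adjusted p 0.0451), as did 235 of the 818 tested miRNAs.

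The miRNAs whose deviations were most like those of miR-1a-3p over 15 libraries were miR-384-3p (r = 0.93), miR-208a-3p (0.87), miR-208a-5p (0.87), miR-9-5p (0.86) and miR-204-5p (0.84). For miR-133a-3p they were miR-384-3p (0.93), miR-9-5p (0.88), miR-490-3p (0.87), miR-299a-5p (0.86) and miR-409-3p (0.85). For miR-208b-3p they were miR-542-3p (0.88), miR-101a-5p (0.84), miR-153-3p (0.84), miR-200a-3p (0.80) and miR-20a-3p (0.80), with none in common with the other lists. Without WT PBS replicate 3, the r of miR-9-5p was 0.67 with miR-1a-3p and 0.59 with miR-133a-3p, and that of miR-384-3p was 0.85 and 0.87. The points share library and scaling, and miR-384-3p read below 5 in every library.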

How the data were processed

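Small RNA of whole lung was sequenced in 15 libraries. Per the submitters' processing notes, Bowtie2 2.3.2, SAMtools 1.9 and edgeR were used by the authors. Genome build and miRBase release: not given in the sources used here. The deposited table holds log2 values for 1424 miRNAs per library, the authors' log2 differences, p-values and q-values. The values were read as log2 of 1 plus an equalized count, although the deposited name mentions RPKM. Read depth is unknown. Library sums ran from 18087300 to 24759600 equalized counts, which are not depths. The authors' log2 differences matched those of the group means within 7.17e-09, and their p-values and q-values are not quoted.

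limma 3.58.1 in R 4.3.3 was fitted with a trend on intensity and a mean for each group (11 residual degrees of freedom), as planned for values that are not counts, with Benjamini-Hochberg adjustment over 818 miRNAs. Ratios were tested by exact permutation in Python 3.11.15 with numpy 2.4.6. Procedures were tested on simulated data. Named miRNAs were the 6 members, the companion muscle lists, and the 5 with the highest correlation of deviations. Alternatives covered filter, pseudocount, scaling, trend, weights, a replicate block, runs of tags and each library left out. The members and lists were chosen with earlier results of these data known. Sequences came from RefSeq, annotation from GENCODE. No column of per-sample values was left out.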

Additional observations from a re-analysis of the deposited data

Results flagged for a closer look

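In the 21 groups of 4 libraries examined for a library far from its group, 2 results stood out, and chance alone flags about 1 group in 20. miR-1a-1-5p in R213G bleomycin replicate 4 was at 2.50, against 1.81, 1.84 and 1.88 in the other 3 libraries of its group, all near the lower limit of the table. miR-1b-5p in R213G bleomycin replicate 3 was at 5.94, against 4.31, 4.40 and 4.57 in the others. Without that replicate the change of miR-1b-5p after bleomycin in R213G was -2.10 (limma adjusted p 0.00370), against -1.73 with it. WT PBS, with 3 libraries, was too small for this examination.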

How the results depend on the processing

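miR-133a-3p was called lower after bleomycin under all 20 alternatives in R213G and all 17 in WT. Of the tests of single miRNAs and ratios, 893 alternative values kept direction and side of the threshold, 10 lost the call, 15 gained it and 36 changed sign. The count of 2 members that fell in WT was 4 with a replicate block, which added miR-1a-3p (-0.98, adjusted p 0.0399) and miR-133b-3p (-1.29, adjusted p 0.0151), and ranged from 1 to 2 with single libraries left out. No source used here says whether the replicate numbers pair the samples. Deviations of libraries with the same number correlated at r = -0.14 to 0.26 in 14 pairs, 6 above 0.1. These values cannot decide it, since no comparison with unlike numbers was made. The R213G count of 4 was 1 within the lower run of tags and 2 within the higher run, with fewer R213G libraries and all WT libraries in each fit. Sign changes were all among values that did not pass the test in the report. With a pseudocount of 5, the R213G minus WT difference was -0.0078 for miR-1b-5p after PBS and -0.0404 for miR-1a-1-5p after bleomycin, and the ratio of miR-1b-5p to miR-1a-3p changed by 0.0233 in R213G and 0.0566 over both genotypes. With quantile normalization the same differences were -0.0302 and -0.0357. With array weights those after PBS were 0.0264 for miR-1a-1-5p and 0.14 for miR-133a-3p. With single libraries left out, R213G minus WT after PBS ranged from -0.38 to 0.81 for miR-1a-3p, -0.95 to 0.56 for miR-1a-1-5p, -0.43 to 0.83 for miR-1b-5p, -0.65 to 0.53 for miR-133a-3p and -1.50 to 0.0029 for miR-133b-3p. After bleomycin it ranged from -0.38 to 0.40 for miR-1a-1-5p and -0.39 to 0.14 for miR-133b-3p. The interaction ranged from -0.54 to 0.97 and from -0.11 to 1.40 for those miRNAs, and the WT change of miR-1a-1-5p from -1.30 to 0.21. Ratios to miR-1a-3p ranged from -0.21 to 0.0339 in R213G, -0.0356 to 0.13 in WT and -0.0793 to 0.0427 over both for miR-1b-5p, -0.0182 to 0.73 in WT for miR-1a-1-5p, and -0.47 to 0.95 in WT for miR-208b-3p. The ratio of miR-1a-1-5p to miR-1a-3p over both genotypes was called without WT bleomycin replicate 4 (1.01, exact permutation, adjusted p 0.00714). Equal medians moved the median of all miRNAs by 0.12 in WT and 0.13 in R213G. The causes were not tested.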

Other observations

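WT PBS replicate 3 differed from the other 2 WT PBS libraries beyond striated muscle. Of the 818 tested miRNAs, 10.3% were at least 1 higher there on the log2 scale. miR-205-5p, of squamous and basal epithelium, was higher by 1.60, at 11.95, but R213G PBS replicate 1 read 11.98. miR-124-3p, a brain miRNA, was higher by 2.48, at 4.62, but WT bleomycin replicate 4 read 4.71. miR-122-5p, the liver miRNA, was at 4.06 there, against a mean of 8.89 in the other 2, but R213G PBS replicate 1 read 3.69. Such values were therefore not particular to WT PBS replicate 3. Relative to the other 2 WT PBS libraries, miR-143-3p differed by -0.22 and miR-126a-3p by -0.43. R213G bleomycin replicate 3, with the highest miR-1a-3p of its group, held the highest value of all 15 libraries for 19.2% of tested miRNAs, but for 0 of the 6 members.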
